A study of Ovis aries with 32 samples.

Results

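Subcutaneous fat from under the sternal skin was compared with epicardial fat, which lies between the heart muscle and its serous covering, in 4 control ewes. The members are the 8 libraries whose labels name these 2 depots in untreated animals, out of 32 libraries in the series, and each ewe gave 1 library of each depot, so that the depots are paired by animal. The series as a whole was made to ask how excess testosterone before birth changes fat in a sheep (Ovis aries) model of polycystic ovary syndrome, and it holds 4 depots of 8 sheep. Control ewes are numbered 98, 131, 132 and 201 in the labels and came from mothers that got no testosterone. The testosterone ewes, 48, 185, 233 and 255, were daughters of mothers given testosterone propionate by injection, 100 mg (1.2 mg/kg) in 2 ml of corn oil and 2 doses a week, between gestation days 30 and 90, and they enter only the last comparison. All sheep, controls included, had their ovaries removed as adults, were kept on a maintenance diet, and were sampled in an artificial follicular phase. That phase was set up with a 1 cm estradiol implant, 2 progesterone implants for 14 days and then 4 estradiol implants of 30 mm for 18 h. Both depots are therefore fat of adult females under high estradiol and after progesterone, and not of cycling or obese animals.

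Subcutaneous fat develops within the body wall, whose cells carry the HOX code of their position along the trunk. Epicardial fat develops on the heart surface beside muscle, coronary vessels and nerves, and cells of the embryonic epicardium, which express WT1, TCF21 and TBX18, contribute to it. Adipocytes of every depot take up fatty acids freed by lipoprotein lipase, make fatty acids of their own, store both as triglyceride in droplets, and release them again through hormone-sensitive lipase and its partner enzymes.

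Messenger RNA was counted by 3′ end sequencing, in which each transcript gives a tag near its end whatever its length. Total counts were 3519829 to 5354843 in the 4 subcutaneous and 2907037 to 5475892 in the 4 epicardial libraries. Levels are given as CPM, counts scaled to library size with TMM factors, and lists of per-library values always follow the order of sheep 98, 131, 132 and 201. Differences are log2 fold changes of subcutaneous minus epicardial fat from edgeR's quasi-likelihood test with the sheep as a block, so that a positive value is higher in subcutaneous fat. A gene passed at a Benjamini-Hochberg adjusted p, or false discovery rate (FDR), under 0.05 over 12487 genes tested. In all, 2221 genes passed: 1050 were higher in subcutaneous fat, which is 8.41% of the genes tested, and 1171 were higher in epicardial fat, which is 9.38%. These shares are the reference for every count of list members below, and counts near them say little about a list. The median log2 difference over all tested genes was -0.01. Leaving out sheep 201 lowered the number of passing genes to 1270, the lowest of the 4 fits with 1 sheep left out.

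The epicardial libraries held heart muscle transcripts in amounts that differed widely between sheep, and these genes are set apart from the fat genes below. A sum of 27 measured heart muscle genes stood at 92.5, 122, 84.4 and 56.6 CPM in subcutaneous and at 38241, 6589, 164 and 1354 CPM in epicardial libraries. Sheep 98 was thus by far the highest, and sheep 132 came close to the subcutaneous level. The sum made up 3.90%, 0.635%, 0.0165% and 0.143% of all epicardial counts.

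Light chains of atrial and of ventricular muscle were both counted. MYL7, the atrial light chain of myosin, had no count in subcutaneous libraries and 2754, 862, 1.45 and 48.5 CPM in epicardial libraries, at least 4010-fold higher over the pooled group (floor of 3 counts over the 4 libraries; floors and intervals cover counting error only). MYL2, the ventricular light chain, was at 225, 115, 0 and 20.2 CPM in epicardial fat and NPPA, the atrial natriuretic peptide, at 131, 60.0, 0 and 0.435 CPM, with no subcutaneous count of either. Cardiac troponin I (TNNI3) and myoglobin (MB) were likewise absent from subcutaneous counts and ran from 0.362 to 1191 CPM and from 0.543 to 941 CPM in epicardial fat. Within the 4 epicardial libraries these genes kept 1 order, with sheep 98 highest, then 131, 201 and 132.

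Of 60 listed heart muscle genes 56 were in the table and 27 had enough counts in enough libraries to be tested, and of these 8 were higher in epicardial fat, among them ANKRD1 with a log2 difference of -8.93 (SE 0.79, edgeR adjusted p = 0.00123). That count moved with the sheep left out, from 3 without sheep 131 and 2 without sheep 201 to 29 without sheep 132. The stress chaperone CRYAB, also on the list, did not follow the order of the other muscle genes, with 6.28, 16.4, 23.4 and 8.45 CPM in subcutaneous and 558, 253, 433 and 202 CPM in epicardial fat. Apart from the lists, genes whose epicardial CPM rose at least 4-fold in the same order of sheep were also set apart, and the lists and this order together covered 162 tested genes. Of these, 41 had passed as higher in epicardial fat, which leaves 1130 epicardial calls that are not set apart. In a fit of sheep 132 and 201 alone, the 2 with the least muscle, 2045 genes passed, and all 1511 of them that had also passed in the 4 sheep kept their direction. Of the 41 genes set apart, 39 could be fitted in these 2 sheep, all 39 were higher in epicardial fat and 29 passed. Both sheep were among the 4 that gave the calls, so that agreement in direction was largely set in advance and is no separate check. With the log2 of the muscle sum as a further covariate, which leaves the fit 2 residual degrees of freedom, 316 genes passed (139 higher in subcutaneous, 177 in epicardial fat). Every epicardial sum lay above every subcutaneous one, so that the covariate and the depot cannot be fully told apart in this fit. A call lost in it is therefore not assigned to muscle. HOXC8, HOXC9, TCF21 and DLK1, described below, were among the genes that lost their calls. In bulk tissue, fewer cells of a type and less RNA per cell cannot be told apart, which holds for all the results that follow.

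**Figure D1:**
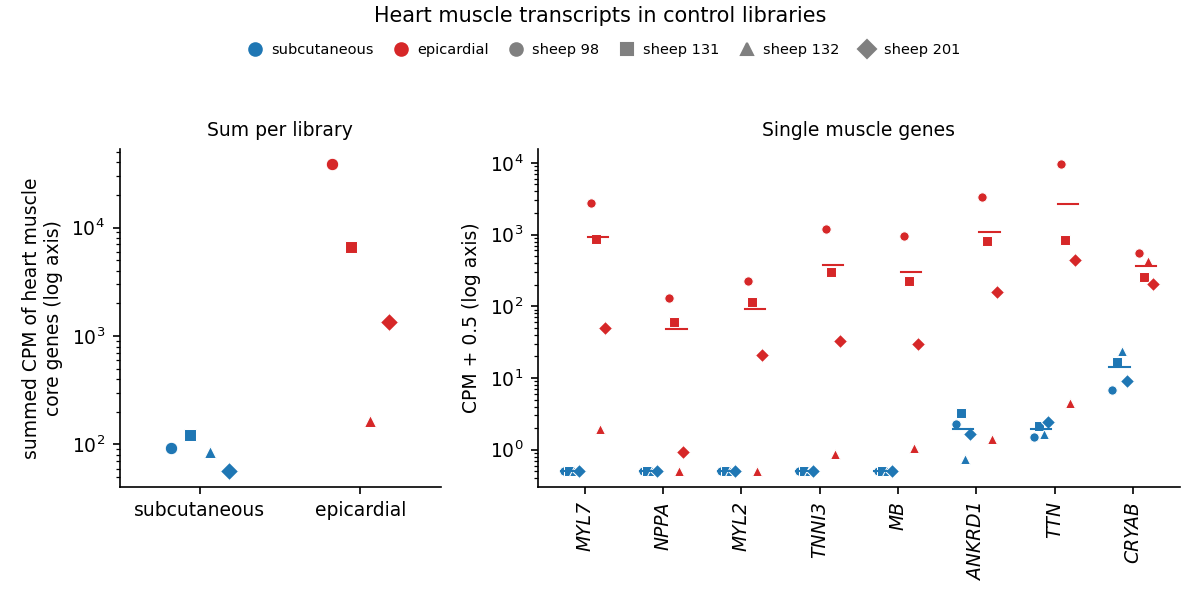
Heart muscle transcripts in the 8 control libraries. Left, the summed CPM of the heart muscle core genes in each library on a log axis; right, CPM + 0.5 of single muscle genes on a log axis, with 1 point per sheep (symbols) and a bar at the mean of 4. Epicardial sums run from 164 CPM in sheep 132 to 38241 CPM in sheep 98, and subcutaneous sums from 56.6 to 122 CPM.

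Genes of body position differed strongly between the depots. The HOX genes, which give cells of the trunk their place along the head-to-tail axis, were mostly higher in subcutaneous fat, and many of them were near 0 in epicardial fat. Of 39 listed HOX genes 37 were in the table, 22 were tested and 20 were higher in subcutaneous fat, with none higher in epicardial fat and a median log2 difference of 4.62 (-0.01 over all genes). The test needs counts in only 1 of the depots, so that the members tested are those with a level in at least 1 of them.

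HOXC6 was at 203, 232, 219 and 231 CPM in subcutaneous and at 0.338, 0.970, 0 and 0.435 CPM in epicardial fat. HOXA9 was at 49.5, 66.0, 27.9 and 49.2 CPM in subcutaneous and at 0.338, 0.582, 0.362 and 0.435 CPM in epicardial fat. In both, the lowest subcutaneous library exceeded the highest epicardial one many times over, and the log2 differences were 8.91 (SE 0.35, edgeR adjusted p = 9.43e-07) and 6.66 (SE 0.27, edgeR adjusted p = 9.43e-07).

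HOXC8 had 70.1, 90.3, 69.9 and 84.5 CPM in subcutaneous fat and no count in epicardial fat, which makes it at least 479-fold higher in subcutaneous fat. HOXC9 was at 68.9, 82.9, 50.2 and 80.1 CPM in subcutaneous fat against a single read in the epicardial library of sheep 132, a ratio of 1290 with a 95% exact interval from 231 to 50900. HOXB7 and HOXD8 kept a low epicardial level: HOXD8 was at 37.0, 38.9, 59.5 and 52.0 CPM in subcutaneous and at 3.71, 3.88, 3.26 and 3.48 CPM in epicardial fat, with a log2 difference of 3.69 (SE 0.23, edgeR adjusted p = 8.89e-06).

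HOXA4 had a smaller log2 difference than the HOX genes above. It was at 20.6, 31.2, 30.2 and 34.0 CPM in subcutaneous and at 12.8, 9.32, 8.33 and 12.6 CPM in epicardial fat, with a log2 difference of 1.43 (SE 0.23, edgeR adjusted p = 0.00268). HOXA2, with a log2 difference of 1.27 (edgeR adjusted p = 0.12), was among the 2 tested members that did not pass.

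Other regulators of position split between the depots. Of 50 listed genes 28 were tested, 12 were higher in subcutaneous and 6 in epicardial fat, and the median log2 difference was 0.52. The Iroquois homeobox genes IRX1 and IRX2 were subcutaneous: IRX2 was at 57.6, 38.1, 37.0 and 36.7 CPM in subcutaneous and at 0.338, 0.194, 0.362 and 0.218 CPM in epicardial fat, with a log2 difference of 7.06 (SE 0.30, edgeR adjusted p = 9.43e-07). IRX1 had 37.5, 33.9, 22.3 and 23.6 CPM in subcutaneous fat and 1 epicardial read in sheep 131, a ratio of 523 with a 95% exact interval from 93.5 to 20700.

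DMRT2, a transcription factor of the early somite, was at 43.0, 55.6, 54.6 and 55.1 CPM in subcutaneous and at 1.35, 0.388, 0 and 0 CPM in epicardial fat. The homeobox gene EMX2 and the mesenchymal regulator TWIST2 were also higher in subcutaneous fat, with log2 differences of 4.20 (SE 0.33) and 2.10 (SE 0.31), and the zinc finger homeobox gene ZFHX4 was at 192 ± 24.4 CPM against 34.4 ± 2.31 CPM (SD, n = 4). PAX1, a regulator of the ventral vertebral column, was too low to be tested, with 2.77, 1.09, 6.56 and 3.07 CPM in subcutaneous fat and no count in epicardial fat, at least 21.0-fold. Every subcutaneous library of each of these genes lay above every epicardial one.

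Epicardial fat was not without homeobox genes. MEIS2, whose protein binds DNA together with HOX proteins, and the mesenchymal homeobox gene PRRX1 were higher there. MEIS2 was at 34.9, 28.5, 45.0 and 39.0 CPM in subcutaneous and at 123, 148, 149 and 101 CPM in epicardial fat, with a log2 difference of -1.82 (SE 0.17, edgeR adjusted p = 1.23e-04), and PRRX1 differed by -1.23 (SE 0.23).

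Regulators of the embryonic epicardium and heart mesoderm were higher in epicardial fat, with 10 of 17 tested members passing in that direction and none in the other (22 listed, all in the table; median log2 difference -1.12). Among the 10 is TBX20, which is also on the heart muscle list, and the other 9 were not set apart with muscle. TCF21, a factor of epicardium-derived fibroblasts, had no count in subcutaneous fat and 59.1, 93.5, 88.7 and 95.8 CPM in epicardial fat, at least 496-fold higher. GATA4, a core cardiac factor, had none in subcutaneous fat and 41.9, 27.8, 30.6 and 19.6 CPM in epicardial fat, at least 165-fold higher. TCF21 was lowest in sheep 98, where muscle was highest, and GATA4 was highest in that sheep and lowest in sheep 201.

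WT1, which marks epicardium and mesothelium, was at 1.26, 0.821, 3.05 and 0.576 CPM in subcutaneous and at 57.4, 60.2, 78.1 and 66.0 CPM in epicardial fat, with a log2 difference of -5.57 (SE 0.31, edgeR adjusted p = 3.22e-06). In the same ewes WT1 ran from 82.0 to 155 CPM in visceral and from 53.0 to 108 CPM in perirenal fat, so that it was not particular to epicardial fat. GATA6 was at 5.28, 5.20, 4.45 and 5.18 CPM in subcutaneous and at 137, 78.4, 36.0 and 71.6 CPM in epicardial fat, differing by -3.88 (SE 0.26, edgeR adjusted p = 1.44e-05). SOX9, a factor of cartilage and of heart valve precursors, was at 4.02, 3.83, 3.28 and 7.30 CPM in subcutaneous and at 57.0, 69.3, 65.6 and 88.0 CPM in epicardial fat, differing by -3.95 (SE 0.20, edgeR adjusted p = 1.92e-06). Subcutaneous and epicardial fat did not overlap in any of the 3, and for GATA6 the epicardial libraries stood in the order of the muscle sum. Visceral and perirenal means were 7.41 and 10.4 CPM for GATA6 and 6.91 and 5.14 CPM for SOX9.

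HAND2 and TBX18 were higher in epicardial fat, with log2 differences of -2.16 (SE 0.34) and -0.98 (SE 0.14), although TBX18 still stood at 72.0 ± 12.9 CPM in subcutaneous fat. TBX20 passed (log2 difference -4.02, SE 0.80, edgeR adjusted p = 0.0129), but not without sheep 201. TBX5, at 57.7, 17.3, 9.60 and 10.01 CPM in epicardial fat, followed the muscle order and did not pass (log2 difference -1.12, edgeR adjusted p = 0.176). With the muscle sum as a covariate, 15 HOX genes, 7 of the other positional genes higher in subcutaneous fat and 3 heart mesoderm genes passed.

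**Figure D2:**
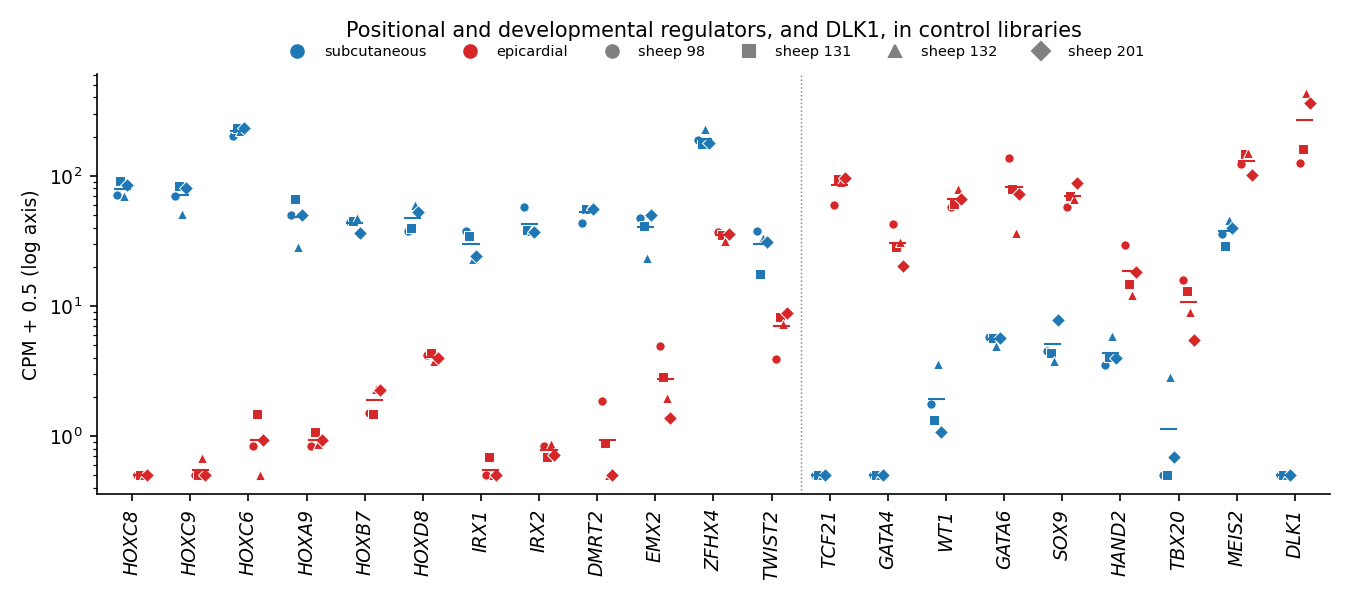
Regulators of position and development, and DLK1, as CPM + 0.5 on a log axis. Each point is 1 library (colour, depot; symbol, sheep) and bars are means of 4. Genes left of the dotted line are higher in subcutaneous fat and genes right of it in epicardial fat, and the 2 depots do not overlap; they come close in TBX20, with at most 2.34 CPM in subcutaneous and at least 5.01 CPM in epicardial fat.

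DLK1 was not detected in subcutaneous fat. This imprinted gene, which encodes a transmembrane protein of preadipocytes that restrains their differentiation, had no count in any subcutaneous library and 126, 159, 429.9 and 359.9 CPM in epicardial libraries, at least 1630-fold higher. GTL2, the long non-coding RNA of the same locus (not on the imprinted list under this name), was counted in both depots, at 304, 385, 253 and 558 CPM in subcutaneous and at 2050.1, 1755, 3413 and 2493 CPM in epicardial fat, with a log2 difference of -2.71 (SE 0.28, edgeR adjusted p = 2.97e-04). In the other 2 depots of the same 4 ewes, DLK1 ran from 0.164 to 4.12 CPM (visceral) and from 0.156 to 29.4 CPM (perirenal). Of 12 imprinted genes tested (21 listed, 19 in the table), 3 were higher in epicardial fat (DLK1, PEG3 and PLAGL1) and 2 in subcutaneous fat, of which none passed without sheep 201 and 1 without sheep 98 or 131. The zinc finger gene PEG3 was at 46.8, 46.0, 47.6 and 71.8 CPM in subcutaneous and at 145, 194, 352 and 234 CPM in epicardial fat, with a log2 difference of -2.08 (SE 0.21, edgeR adjusted p = 2.21e-04).

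Genes that define the adipocyte did not all move one way. Among those described here, FABP4, ADIPOQ, LIPE, MGLL and CIDEC were higher in subcutaneous fat, and LPL, SLC2A4, GPAM and DGAT2 were higher in epicardial fat. All 24 core adipocyte genes in the table (26 listed) were tested, and 11 were higher in subcutaneous and 5 in epicardial fat, with a median log2 difference of 0.49. The core genes summed to 34945 to 48188 CPM in subcutaneous libraries and to 25193 to 31631 CPM in the epicardial libraries of sheep 131, 132 and 201, and to 13167 CPM in that of sheep 98, the one with the most muscle. With the muscle sum as a covariate, 1 core gene passed as higher in subcutaneous and 2 as higher in epicardial fat. In that fit FABP4, ADIPOQ, LIPE, MGLL, CIDEC, CIDEA, PLIN4, TRARG1, LPL, GPAM and SLC2A4 did not pass. DGAT2 did.

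FABP4, the fatty acid carrier of adipocytes, was at 16398, 12089.8, 22401 and 23368 CPM in subcutaneous and at 2886, 9651, 10203 and 10082 CPM in epicardial fat. Adiponectin (ADIPOQ), a defining adipocyte product, was at 10045, 12815, 14881 and 12234 CPM in subcutaneous and at 3556, 8456, 6445 and 5894 CPM in epicardial fat, so that every library carried it at 3556 CPM or more. The depots did not overlap in FABP4 or ADIPOQ, and the log2 differences were 1.28 (SE 0.33, edgeR adjusted p = 0.0257) and 1.08 (SE 0.23, edgeR adjusted p = 0.00936). The call of FABP4 was lost without sheep 98, 132 or 201 (highest edgeR adjusted p = 0.0960) and that of ADIPOQ without sheep 201 (edgeR adjusted p = 0.0667), in the same direction each time.

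Hormone-sensitive lipase (LIPE), which cuts stored lipid, was at 1949.5, 1749, 2583 and 2534 CPM in subcutaneous and at 446, 1115, 1317 and 843 CPM in epicardial fat, with a log2 difference of 1.32 (SE 0.24, edgeR adjusted p = 0.00499). Monoglyceride lipase (MGLL), which completes the same pathway, was at 112, 116, 109 and 105 CPM in subcutaneous and at 42.9, 61.5, 57.0 and 46.4 CPM in epicardial fat, differing by 1.09 (SE 0.14, edgeR adjusted p = 8.47e-04). Each subcutaneous library exceeded each epicardial one for both. Adipose triglyceride lipase (PNPLA2), the first enzyme of the pathway, differed by 0.73 (SE 0.13).

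The droplet proteins CIDEC, CIDEA and PLIN4 were all higher in subcutaneous fat. CIDEC, which fuses droplets into one, was at 737, 775, 745 and 769 CPM in subcutaneous and at 142, 283, 344 and 236 CPM in epicardial fat, differing by 1.65 (SE 0.20, edgeR adjusted p = 5.99e-04). Subcutaneous libraries lay within 737 to 775 CPM, a far narrower range than the epicardial ones. CIDEA, its relative, was at 186, 95.0, 104 and 94.1 CPM in subcutaneous and at 34.8, 36.5, 42.6 and 35.9 CPM in epicardial fat, and PLIN4 differed by 1.38 (SE 0.22). PLIN1, the main droplet coat protein, did not pass (log2 difference -0.20, edgeR adjusted p = 0.533), nor did leptin (LEP, 0.50, edgeR adjusted p = 0.396) or PPARG, the master regulator of adipocytes (0.07, SE 0.16).

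TRARG1, which regulates traffic of the glucose carrier GLUT4, was at 428, 515, 384 and 419 CPM in subcutaneous and at 136, 127, 169.9 and 147 CPM in epicardial fat. GLUT4 itself (SLC2A4) went the other way, at 24.6, 61.0, 64.9 and 34.8 CPM in subcutaneous and at 81.7, 169, 132 and 93.0 CPM in epicardial fat. The log2 differences were 1.58 (SE 0.17, edgeR adjusted p = 2.56e-04) and -1.41 (SE 0.16, edgeR adjusted p = 3.37e-04), and neither pair of groups overlapped.

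Lipoprotein lipase (LPL), which frees fatty acids from circulating lipoproteins, was at 1041, 844, 1753 and 1061 CPM in subcutaneous and at 2828, 5896, 5449 and 3734 CPM in epicardial fat, with a log2 difference of -1.93 (SE 0.24, edgeR adjusted p = 6.62e-04). The highest subcutaneous library, that of sheep 132, stayed below the lowest epicardial one. GPAM and DGAT2, the first and last enzymes of triglyceride assembly, were also epicardial: DGAT2 was at 114, 185, 126 and 82.0 CPM in subcutaneous and at 330.4, 452, 633 and 467 CPM in epicardial fat, differing by -1.92 (SE 0.22, edgeR adjusted p = 5.52e-04). DGAT1, the second enzyme for that last step, differed by -2.30 (SE 0.26). GPAM differed by -2.06 (SE 0.38), but its call was lost without sheep 98, 131 or 201. Without sheep 131 or 201, 3 core adipocyte genes in place of 5 passed as higher in epicardial fat.

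Fatty acid synthesis showed a similar division between related enzymes. Of 24 lipogenic genes (24 listed, all tested), 9 were higher in subcutaneous and 7 in epicardial fat, with a median log2 difference of 0.23. ACACA, the cytosolic acetyl-CoA carboxylase that feeds fatty acid synthesis, was at 48.8, 74.5, 62.1 and 34.8 CPM in subcutaneous and at 18.9, 37.8, 38.4 and 23.3 CPM in epicardial fat. ACACB, the mitochondrial form, was at 0.251, 0, 0 and 0.576 CPM in subcutaneous and at 19.9, 8.93, 4.35 and 3.05 CPM in epicardial fat. ACACA was higher in subcutaneous fat in 4 of 4 sheep although the groups overlapped (log2 difference 0.88, SE 0.17, edgeR adjusted p = 0.00715), and ACACB was higher in epicardial fat without overlap (-4.95, SE 0.70, edgeR adjusted p = 0.00129). The epicardial ACACB level was highest in sheep 98 and lowest in sheep 201.

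The same held for the desaturases, which put a double bond into fatty acids. SCD was at 10.8, 8.21, 12.7 and 5.38 CPM in subcutaneous and at 0.675, 0.776, 1.27 and 0.871 CPM in epicardial fat, differing by 3.26 (SE 0.38, edgeR adjusted p = 3.96e-04), whereas SCD5 was at 7.29, 3.28, 2.34 and 1.92 CPM in subcutaneous and at 109, 21.2, 10.5 and 9.80 CPM in epicardial fat, differing by -2.93 (SE 0.32, edgeR adjusted p = 2.86e-04). Epicardial SCD5 reached its peak in sheep 98. In sheep 132 and 201 it was only a little above the highest subcutaneous value, the 7.29 CPM of sheep 98, but well above the 2.34 and 1.92 CPM of the same ewes.

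THRSP, a nuclear protein that goes with lipogenesis, varied several-fold between sheep, at 70.4, 243, 185 and 40.3 CPM in subcutaneous and at 13.8, 67.3, 35.0 and 13.7 CPM in epicardial fat. The groups overlapped, but in each of the 4 sheep the subcutaneous value was the higher (log2 difference 2.03, SE 0.18, edgeR adjusted p = 7.51e-05). SREBF1, the transcription factor of lipogenic genes, ACSS2, which activates the acetate that ruminants use for fat synthesis, and AGPAT2 were higher in subcutaneous fat by 1.08 (SE 0.19), 1.15 (SE 0.16) and 1.30 (SE 0.20) on the log2 scale. Fatty acid synthase (FASN) did not pass (log2 difference 0.17, SE 0.24, edgeR adjusted p = 0.67).

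Of 19 sterol genes tested, 6 were higher in epicardial and 3 in subcutaneous fat (median log2 difference -0.28), the 6 falling to 3 without sheep 201. INSIG1, which holds back sterol synthesis, was at 205, 126, 175 and 286 CPM in subcutaneous and at 37.1, 56.5, 50.3 and 69.9 CPM in epicardial fat, a log2 difference of 1.85 (SE 0.20, edgeR adjusted p = 2.65e-04). The cholesterol exporter ABCA1 was also higher in subcutaneous fat, by 1.04 (SE 0.17).

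**Figure D3:**
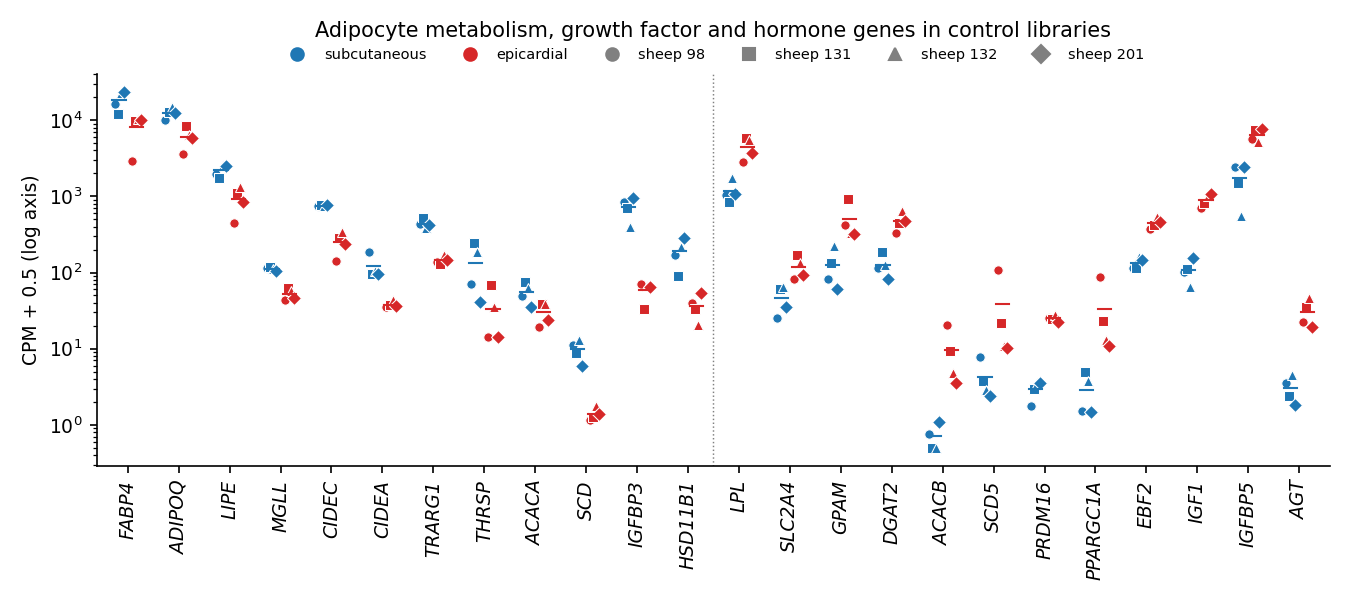
Genes of adipocyte metabolism, growth factors and hormones as CPM + 0.5 on a log axis. Each point is 1 control library (colour, depot; symbol, sheep) and bars are means of 4. Genes left of the dotted line are higher in subcutaneous and genes right of it in epicardial fat; the epicardial library of sheep 98 is the lowest for FABP4 (2886 CPM) and the highest for SCD5 (109 CPM) and PPARGC1A (85.7 CPM).

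A pair of receptors that brake lipolysis were higher in subcutaneous fat, and a pair that drive it were higher in epicardial fat. ADRA2A, the alpha-2A adrenoceptor, and PTGER3, a prostaglandin E receptor, both couple to inhibition of cyclic AMP, and both were higher in subcutaneous fat in 4 of 4 sheep, by 1.72 (SE 0.25, edgeR adjusted p = 0.00229) and 1.07 (SE 0.16, edgeR adjusted p = 0.00201) on the log2 scale. The beta-1 adrenoceptor ADRB1 was at 50.3, 82.4, 40.8 and 93.7 CPM in subcutaneous and at 139.7, 147, 122 and 141 CPM in epicardial fat, differing by -1.12 (SE 0.19, edgeR adjusted p = 0.00306). The beta-3 adrenoceptor ADRB3 was at 1.01, 7.94, 0 and 6.53 CPM in subcutaneous and at 15.2, 27.0, 15.6 and 30.5 CPM in epicardial fat, and its call (-2.81, SE 0.58, edgeR adjusted p = 0.0178) was lost without sheep 201. NPR3, which clears natriuretic peptides from the circulation, was higher in epicardial fat as well (-2.59, SE 0.39). Over the whole list of lipolysis and adrenergic genes, 6 of 19 tested were higher in subcutaneous and 3 in epicardial fat, with a median log2 difference of -0.03. Over all genes the shares were 8.41% and 9.38%.

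Regulators of brown and beige fat, the heat-making kinds, included members higher in each depot, and the heat-making protein itself was close to absent from both. Of 9 members tested (20 listed, 17 in the table), 5 were higher in epicardial and 2 in subcutaneous fat, with a median log2 difference of -1.75. PRDM16, which directs precursors to the brown fate, was at 1.26, 2.46, 3.05 and 3.07 CPM in subcutaneous and at 25.0, 23.7, 27.0 and 22.0 CPM in epicardial fat, differing by -3.30 (SE 0.28, edgeR adjusted p = 5.76e-05). EBF2, which opens brown fat genes, was at 114, 113, 159 and 147 CPM in subcutaneous and at 367, 419.8, 528 and 462 CPM in epicardial fat, differing by -1.75 (SE 0.14, edgeR adjusted p = 3.91e-05). PRDM16 lay within 22.0 to 27.0 CPM in the 4 epicardial libraries. EBF2 was lowest in sheep 98, where muscle was highest, and highest in sheep 132, where it was lowest.

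PPARGC1A, the coactivator of mitochondrial genes, is also expressed in heart, and it did differ between the epicardial libraries, at 1.01, 4.38, 3.28 and 0.960 CPM in subcutaneous and at 85.7, 22.3, 12.7 and 10.4 CPM in epicardial fat, highest in sheep 98 (log2 difference -3.36, SE 0.70, edgeR adjusted p = 0.0235, lost without sheep 131 or 201). UCP1, the heat-making uncoupler, was at 0, 0.547, 0 and 0.192 CPM in subcutaneous and at 0, 0.194, 0.181 and 0.218 CPM in epicardial fat and had too few counts to be tested. The thyroid hormone activator DIO2 did not pass (-1.41, SE 0.54). CIDEA, which is also a brown fat marker, and PDK4, which turns cells from glucose to fat burning, were the 2 members higher in subcutaneous fat, PDK4 not without sheep 131 or 201. Without sheep 131 and without sheep 201, 3 and 2 members of the list passed as higher in epicardial fat.

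Of 20 respiratory chain and ATP synthase genes tested, 6 were higher in epicardial fat and none in subcutaneous fat (median log2 difference -0.64). NDUFS1, a subunit of complex I, was at 32.4, 42.7, 27.7 and 34.0 CPM in subcutaneous and at 169, 70.5, 55.4 and 60.1 CPM in epicardial fat, again highest in sheep 98. In the fit without sheep 98 the 6 fell to 2, and without sheep 131 to 1. ETFA and ACADVL, which carry out steps of mitochondrial fatty acid oxidation, were higher in epicardial fat, with log2 differences of -0.85 (SE 0.13) and -0.83 (SE 0.18). Of the 20 genes tested in their list, 4 were higher there and 2 in subcutaneous fat, against 9.38% and 8.41% over all genes. Without sheep 131 or 201 the 2 became 0.

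Members of the insulin-like growth factor system passed in both directions. IGF1, the growth factor, was at 102, 112, 63.5 and 155 CPM in subcutaneous and at 707, 821, 1013 and 1081 CPM in epicardial fat, with a log2 difference of -3.11 (SE 0.23, edgeR adjusted p = 2.83e-05). IGFBP5, a binding protein held in the matrix, was at 2435, 1514, 548 and 2454 CPM in subcutaneous and at 5725, 7371, 5104 and 7692 CPM in epicardial fat, differing by -2.10 (SE 0.31, edgeR adjusted p = 0.00225). Neither overlapped between depots, and epicardial IGF1 was lowest in sheep 98.

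IGFBP3, the main carrier of IGF1 in blood, went the other way, at 837, 699.7, 392 and 949 CPM in subcutaneous and at 69.2, 33.2, 66.1 and 64.9 CPM in epicardial fat, differing by 3.60 (SE 0.29, edgeR adjusted p = 1.54e-04). The growth hormone receptor GHR was at 1155, 1103, 1635 and 1479.6 CPM in subcutaneous and at 553, 837, 854 and 736 CPM in epicardial fat, differing by 0.84 (SE 0.17, edgeR adjusted p = 0.00852) that was lost without sheep 201. IGF2 and the receptor IGF1R did not pass, at 0.09 (SE 0.16) and 0.02 (SE 0.18). Over the list, 4 of 12 tested members were higher in epicardial fat and 2 in subcutaneous fat, with a median log2 difference of -0.03, and IGFBP7 (-0.98, SE 0.14) was among the 4.

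Of 21 insulin signalling genes tested, 3 were higher in subcutaneous and 2 in epicardial fat, against shares of 8.41% and 9.38% over all genes. GRB14, an adaptor that blocks the insulin receptor, was at 4.78, 3.56, 2.58 and 2.50 CPM in subcutaneous and at 22.3, 42.7, 39.3 and 25.9 CPM in epicardial fat, differing by -3.26 (SE 0.29, edgeR adjusted p = 7.51e-05). Its relative GRB10 was higher in subcutaneous fat (0.88, SE 0.19), as was the receptor substrate IRS2 (1.05, SE 0.29), and neither passed without sheep 201, when none of the 3 did. Without sheep 98 1 of the list passed as higher in subcutaneous fat. The insulin receptor INSR did not pass (-0.11, SE 0.14).

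Angiotensinogen (AGT), the precursor of angiotensin, was at 3.02, 1.92, 3.99 and 1.34 CPM in subcutaneous and at 21.6, 34.9, 45.5 and 18.5 CPM in epicardial fat, a log2 difference of -3.54 (SE 0.27, edgeR adjusted p = 2.91e-05). AGTR1, the receptor behind most known actions of angiotensin II, was higher in subcutaneous fat, at 97.5, 110.0, 109 and 127 CPM in subcutaneous and at 44.6, 19.8, 18.1 and 14.8 CPM in epicardial fat (2.31, SE 0.30, edgeR adjusted p = 0.00218), with the epicardial library of sheep 98 above the other 3. AGTR2, the other receptor, was low in both depots and higher in epicardial fat (-4.22, SE 0.52, edgeR adjusted p = 5.95e-04). The peptidases ENPEP, which shortens angiotensin II, and ANPEP, which shortens its product, differed by -1.52 (SE 0.18) and 2.04 (SE 0.35). In all, 5 of 12 genes of the angiotensin and natriuretic list were higher in epicardial and 3 in subcutaneous fat, with a median log2 difference of -0.42, and the 5 became 3 without sheep 201.

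CRHR2, a receptor of the urocortin peptides that act on the heart, was at 0.251, 2.19, 0.469 and 0.192 CPM in subcutaneous and at 29.0, 47.4, 23.7 and 24.8 CPM in epicardial fat, differing by -5.45 (SE 0.38, edgeR adjusted p = 1.67e-05). HSD11B1, which regenerates cortisol from cortisone inside cells, was at 169.9, 89.2, 215 and 285 CPM in subcutaneous and at 39.8, 32.2, 19.9 and 52.9 CPM in epicardial fat, differing by 2.34 (SE 0.29, edgeR adjusted p = 0.00167). Since all ewes carried estradiol implants and had carried progesterone, the receptors of these steroids were looked at one by one. ESR1 was at 40.0, 53.4, 33.8 and 24.0 CPM in subcutaneous and at 40.5, 49.3, 89.8 and 62.3 CPM in epicardial fat and did not pass (-0.69, SE 0.30, edgeR adjusted p = 0.154), and neither did PGR (-0.07, SE 0.19) or the glucocorticoid receptor NR3C1 (0.36, SE 0.14). LEPR, the leptin receptor, was also higher in subcutaneous fat, at 6.79, 12.04, 2.34 and 5.38 CPM in subcutaneous and at 0.338, 0.776, 0.362 and 0.218 CPM in epicardial fat (3.79, SE 0.47, edgeR adjusted p = 5.76e-04).

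Of 21 collagen genes tested, 10 were higher in epicardial and 2 in subcutaneous fat (median log2 difference -0.97). COL1A1, a chain of type I collagen, was at 246, 137, 304 and 178 CPM in subcutaneous and at 572, 455, 874 and 768 CPM in epicardial fat, differing by -1.65 (SE 0.18, edgeR adjusted p = 2.65e-04). COL8A1, a short-chain collagen of vessels, was at 159, 161, 169 and 135 CPM in subcutaneous and at 527, 656, 842 and 800.3 CPM in epicardial fat (-2.17, SE 0.18, edgeR adjusted p = 4.92e-05). COL3A1 was also higher in epicardial fat (-1.01, SE 0.19), whereas COL4A2, a chain of the basement membrane collagen, and COL12A1 were higher in subcutaneous fat, by 1.23 (SE 0.15) and 1.27 (SE 0.26). No library of one depot overlapped the other for these 5 genes.

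Among elastic fibre genes and proteoglycans, 12 of 28 tested were higher in epicardial and 1 in subcutaneous fat (median log2 difference -0.71). The collagen-binding proteoglycan lumican (LUM) was at 103, 86.5, 241 and 110.0 CPM in subcutaneous and at 419.9, 811, 678 and 508 CPM in epicardial fat, differing by -2.24 (SE 0.26, edgeR adjusted p = 6.75e-04). EFEMP1, EMILIN1 and LTBP1, all proteins of elastic fibres or microfibrils, were higher in epicardial fat, with log2 differences of -1.98, -3.48 and -2.49 (SE 0.15, 0.27 and 0.35). Elastin itself (ELN) was the member higher in subcutaneous fat, at 131, 96.1, 103 and 71.6 CPM in subcutaneous and at 48.6, 42.1, 43.8 and 77.3 CPM in epicardial fat, with the highest epicardial library, that of sheep 201, above the lowest subcutaneous one of the same sheep. Its call (0.93, SE 0.25, edgeR adjusted p = 0.0368) was lost without sheep 98, 131 or 132. MGP, which prevents calcification of matrix, was at 686, 509.7, 1041 and 596 CPM in subcutaneous and at 3817, 5563, 3052 and 2504 CPM in epicardial fat, differing by -2.39 (SE 0.29, edgeR adjusted p = 8.07e-04).

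Other matrix and fibroblast genes, some of them picked after their values were seen, were higher in subcutaneous fat. CCN3, a secreted regulator of cell contacts, was at 668, 775, 1036 and 965 CPM in subcutaneous and at 34.1, 43.5, 48.7 and 71.8 CPM in epicardial fat, a log2 difference of 4.14 (SE 0.18, edgeR adjusted p = 1.05e-06). FAP, a surface protease of activated fibroblasts, was at 228, 154, 159 and 138 CPM in subcutaneous and at 12.8, 12.2, 10.7 and 13.7 CPM in epicardial fat, differing by 3.74 (SE 0.18, edgeR adjusted p = 1.52e-06). Both were among the 8 genes with the lowest p-values in the direction of subcutaneous fat. POSTN and THBS1, matrix proteins of wound repair, differed by 2.20 (SE 0.20) and 2.67 (SE 0.21), and SPARC was at 2392, 2333, 962 and 2090.0 CPM in subcutaneous and at 614, 857, 752 and 801 CPM in epicardial fat (1.28, SE 0.25, edgeR adjusted p = 0.00662). PDGFRA, the receptor that marks fibroblasts and adipocyte precursors, was instead higher in epicardial fat (-1.26, SE 0.16, edgeR adjusted p = 7.44e-04), and the proteoglycan decorin (DCN) did not pass (-0.58, edgeR adjusted p = 0.0738). The 26 genes of the fibroblast and progenitor list summed to 3900 to 5290 CPM in subcutaneous and 6581 to 8557 CPM in epicardial libraries. Of the 24 tested, 6 were higher in epicardial and 2 in subcutaneous fat. Without sheep 131 and without sheep 201 the 6 became 3 and 2. The other 2 became 1 without sheep 98 and 0 without sheep 201.

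Genes of developmental signals passed in both directions. APCDD1, an inhibitor of Wnt signals, was at 462, 352, 546 and 351 CPM in subcutaneous and at 36.1, 81.9, 50.3 and 45.5 CPM in epicardial fat (3.02, SE 0.25, edgeR adjusted p = 1.17e-04), and RSPO3, which strengthens them, at 229, 177, 80.2 and 169.5 CPM in subcutaneous and at 42.2, 17.3, 29.7 and 23.9 CPM in epicardial fat (2.50, SE 0.29, edgeR adjusted p = 0.00128). BMP2 and BMP5 were higher in subcutaneous fat by 1.60 (SE 0.17) and 2.09 (SE 0.27). Of the 30 tested genes of the TGF-beta, BMP and activin pathway 7 were higher in subcutaneous and 4 in epicardial fat, and of 22 Wnt genes 4 and 2 were, against the shares of 8.41% and 9.38% over all genes. Without sheep 98 the 7 became 4, without sheep 131 or 201 the pathway's 4 became 2, and without sheep 98, 131 or 201 the 4 Wnt genes became 2 and the other 2 became 0. SLIT2, a secreted guidance cue, was higher in epicardial fat, at 2.51, 1.64, 5.39 and 1.73 CPM in subcutaneous and at 21.3, 37.1, 37.3 and 40.5 CPM in epicardial fat (-3.63, SE 0.33, edgeR adjusted p = 9.67e-05).

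Other cell types of the tissue also differed. All 9 T and natural killer cell genes that had enough counts were higher in epicardial fat, out of 20 listed and 19 in the table (median log2 difference -2.35). Over all genes the share was 9.38%. The test needs counts in only 1 of the depots, so that low genes such as CD8A could enter through their epicardial counts. Of the untested members, CD4 and GZMA were not higher in epicardial fat, while LCK and PRF1 were. The 19 genes summed to 19.9 to 43.8 CPM in subcutaneous and 88.0 to 167 CPM in epicardial libraries. CD3G, a chain of the T cell receptor complex, was at 1.76, 6.30, 2.34 and 4.42 CPM in subcutaneous and at 16.5, 29.9, 19.4 and 11.1 CPM in epicardial fat (-2.37, SE 0.33, edgeR adjusted p = 0.00108), and NKG7, a protein of cytotoxic granules, at 2.51, 2.74, 2.81 and 2.50 CPM in subcutaneous and at 11.5, 11.8, 13.6 and 13.1 CPM in epicardial fat (-2.24, SE 0.27, edgeR adjusted p = 5.47e-04). IL7R and CD8A differed by -2.07 and -2.22. With the muscle sum as a covariate 1 gene of the list passed, while in sheep 132 and 201 alone 10 T and NK genes did.

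Complement genes followed the same direction, with 8 of 17 tested higher in epicardial and 1 in subcutaneous fat (median log2 difference -0.72), falling to 5 without sheep 131 and 4 without sheep 201. C1S, a protease that starts the classical pathway, was at 85.2, 108, 152 and 110.4 CPM in subcutaneous and at 195, 267, 295 and 279 CPM in epicardial fat (-1.21, SE 0.14, edgeR adjusted p = 4.15e-04), and CD59, which protects cells from complement, was the subcutaneous member at 540.5, 453, 609 and 659.9 CPM in subcutaneous and at 247, 259, 274 and 254 CPM in epicardial fat (1.11, SE 0.15, edgeR adjusted p = 0.00108). C7 and C3 differed by -4.10 and -1.54, and both calls were lost without sheep 131 or 201. Of 15 interferon response genes 6 were higher in epicardial fat and none in subcutaneous fat, with IFI44 at 11.8, 8.76, 20.9 and 13.6 CPM in subcutaneous and at 19.9, 23.9, 51.8 and 31.6 CPM in epicardial fat, higher in epicardial fat in 4 of 4 sheep; the 6 became 3 without sheep 132. TNF was low in both depots and higher in epicardial fat (-2.20, SE 0.40, edgeR adjusted p = 0.00483), as was the class II invariant chain CD74 (-1.22, SE 0.25, edgeR adjusted p = 0.011).

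Most glial and nerve genes tested were higher in epicardial fat, some of them in the order of the muscle sum. Of 13 tested (26 listed, 24 in the table), 10 were higher in epicardial and 1 in subcutaneous fat, with a median log2 difference of -2.98. CDH19, a cadherin of Schwann cells, was at 1.01, 1.92, 0.938 and 3.65 CPM in subcutaneous and at 69.5, 43.3, 21.0 and 37.2 CPM in epicardial fat (-4.42, SE 0.37, edgeR adjusted p = 9.06e-05), and SCN7A, a sodium channel of the same cells, at 1.01, 0.274, 1.64 and 1.15 CPM in subcutaneous and at 64.1, 6.40, 18.1 and 33.3 CPM in epicardial fat (-4.74, SE 0.39, edgeR adjusted p = 4.65e-05). CDH19 followed the order of the muscle sum among the epicardial libraries, and so did the sum of the list. That sum stood at 349, 575, 313 and 504 CPM in subcutaneous and at 896, 600, 340 and 439 CPM in epicardial libraries. The 2 depots overlapped in this sum, but most of it in subcutaneous fat was S100B alone, at 306, 509, 248 and 448 CPM there. NEFL, a gene of nerve fibres, at 46.6, 20.0, 3.44 and 9.14 CPM in epicardial fat, followed the order too and, rising over 4-fold, was set apart with muscle. S100B, a glial gene that adipocytes also express, was the subcutaneous member, at 306, 509, 248 and 448 CPM in subcutaneous and at 195, 276, 162 and 119 CPM in epicardial fat (1.00, SE 0.21, edgeR adjusted p = 0.0114, lost without sheep 131). With the muscle sum as a covariate 2 genes of the list passed as higher in epicardial fat, CDH19 and SCN7A.

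Of 19 endothelial genes tested 5 were higher in subcutaneous fat and none in epicardial fat, KDR by 0.79 (SE 0.16) and PECAM1 by 0.56 (SE 0.16), but the 5 became 3 without sheep 98, 2 without sheep 131 and 2 without sheep 201. Smooth muscle and pericyte genes gave 4 of 13 higher in epicardial fat, among them the smooth muscle myosin MYH11 at 6.79, 18.9, 23.2 and 17.1 CPM in subcutaneous and at 31.4, 45.8, 43.6 and 45.5 CPM in epicardial fat (-1.41, SE 0.22, edgeR adjusted p = 0.00205), and 2 without sheep 98 or 201.

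Genes that respond within minutes to hours to handling, oxygen and hormones also separated the depots. FOS, an immediate early transcription factor, had the lowest p-value of the genes higher in epicardial fat, at 8.55, 17.8, 15.0 and 11.3 CPM in subcutaneous and at 91.1, 189.8, 128 and 107 CPM in epicardial fat (-3.29, SE 0.16, edgeR adjusted p = 1.52e-06). EGR3 and JUNB differed by -2.86 (SE 0.29) and -1.52 (SE 0.16), while MYC and FOSL2 were higher in subcutaneous fat (1.24, SE 0.16, and 1.52, SE 0.23). JUN did not pass (-0.79, edgeR adjusted p = 0.0539). Of 23 such genes 9 were higher in epicardial and 2 in subcutaneous fat (median log2 difference -0.62), and without sheep 201 the 9 became 5. Per the labels each depot was frozen at once; the order in which depots were taken is not given in the sources used here.

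Among hypoxia-responsive genes 6 of 23 were higher in subcutaneous and 4 in epicardial fat (median log2 difference 0.27), the 4 becoming 2 without sheep 98. The peptide hormone adrenomedullin (ADM) was at 2815, 2473, 612 and 2452 CPM in subcutaneous and at 594, 660.5, 408 and 529.9 CPM in epicardial fat, with sheep 132 far below the other subcutaneous libraries (1.74, SE 0.28, edgeR adjusted p = 0.00304). HIF1A, the oxygen-sensing factor, was at 447, 286, 725 and 348 CPM in subcutaneous and at 151, 164, 123 and 167 CPM in epicardial fat (1.48, SE 0.28, edgeR adjusted p = 0.00906), and BNIP3 and NDRG1 differed by 1.38 (SE 0.17) and 1.38 (SE 0.15). EGLN3, the hydroxylase that marks HIF proteins for removal, was higher in epicardial fat (-1.77, SE 0.30, edgeR adjusted p = 0.00595). Catalase (CAT), which breaks down hydrogen peroxide, was at 952, 1173, 959.7 and 1266 CPM in subcutaneous and at 194, 308, 365 and 313 CPM in epicardial fat, differing by 1.90 (SE 0.18, edgeR adjusted p = 1.31e-04), and the secreted superoxide dismutase SOD3 differed by 1.91 (SE 0.21).

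Of the remaining genes taken by rule, SNCG, gamma-synuclein, and FBXO2, a ubiquitin ligase subunit that binds glycoproteins, had some of the lowest p-values on the subcutaneous side. SNCG was at 115, 146, 77.8 and 126 CPM in subcutaneous and at 7.43, 6.99, 3.26 and 9.80 CPM in epicardial fat (4.12, SE 0.20, edgeR adjusted p = 1.73e-06) and FBXO2 at 105, 68.4, 58.6 and 88.9 CPM in subcutaneous and at 2.36, 4.66, 2.35 and 3.05 CPM in epicardial fat (4.61, SE 0.25, edgeR adjusted p = 3.03e-06). Among abundant genes, the clathrin adaptor PICALM was at 1752, 1163, 1476 and 2199 CPM in subcutaneous and at 279, 625, 425 and 435 CPM in epicardial fat (1.92, SE 0.27, edgeR adjusted p = 0.00167). RHOBTB3 differed by 1.17 (SE 0.17). Glutamine synthetase (GLUL) and the actin-binding TMSB10 passed, with log2 differences of 1.29 (SE 0.33, edgeR adjusted p = 0.03) and 0.72 (SE 0.20, edgeR adjusted p = 0.0353), but lost their calls without sheep 98 or 201, GLUL also without 132 and TMSB10 without 131. On the epicardial side, LRRC17 was at 5.03, 6.30, 6.80 and 6.72 CPM in subcutaneous and at 34.4, 54.5, 45.8 and 45.9 CPM in epicardial fat (-2.85, SE 0.19, edgeR adjusted p = 1.29e-05) and the protease inhibitor TFPI2 at 258, 358, 327 and 283 CPM in subcutaneous and at 877, 1598, 1415 and 1188 CPM in epicardial fat (-2.03, SE 0.16, edgeR adjusted p = 3.84e-05). The chaperone HSP90AA1 (-0.76, SE 0.22, edgeR adjusted p = 0.0368) was lost without sheep 98, 132 or 201.

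**Figure D4:**
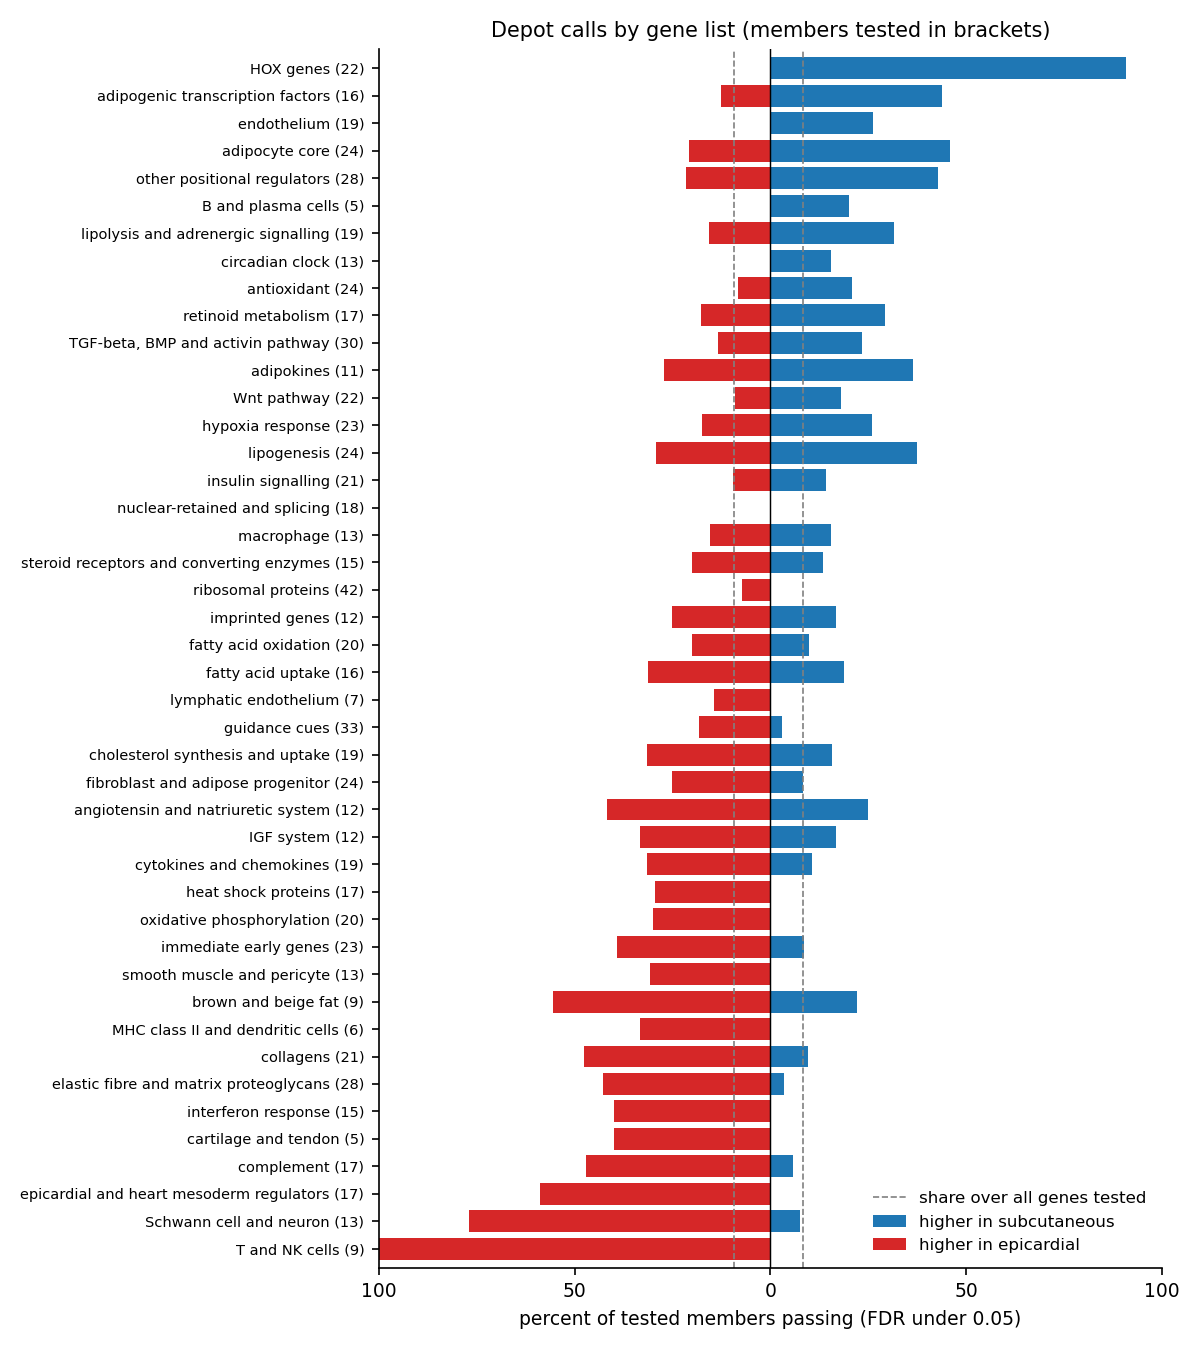
Share of each gene list that passed the test, in percent of its tested members (number in brackets), with genes higher in subcutaneous fat to the right and genes higher in epicardial fat to the left. Dashed lines mark the shares over all tested genes, 8.41% and 9.38%; muscle lists are left out, as are lists with fewer than 5 tested members, and the HOX list (20 of 22) and the T and NK list (9 of 9) lie at the 2 ends.

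The last comparison asks whether the depot difference of control ewes was the same in testosterone ewes, whose 8 libraries played no part in the results above. The difference between the 2 depot differences passed for 0 of 13488 genes (0%) in edgeR's quasi-likelihood test over 16 libraries. An unadjusted p under 0.05 was reached by 334 genes, which is less than the share of 0.05 that chance alone would give. A lack of passing genes does not show that the depots differ alike in both groups, since libraries of the testosterone sheep varied widely. Some were also shallower. Their total counts went down to 784135 in subcutaneous and 1753228 in epicardial fat, against 3519829 and 2907037 in control ewes. Low depth also makes the direction of low genes less certain in single ewes. The epicardial library of testosterone sheep 255 carried HOX transcripts that the other epicardial libraries lacked, and heart muscle sums ran from 144 to 48423 CPM in epicardial libraries of testosterone ewes.

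Of the 32 genes taken by rule, 28 differed in the direction of the control ewes in 4 of 4 testosterone ewes. The other 4 were SNCG, ADIPOQ and TMSB10, in 3 of 4, and SPARC, in 2 of 4. Over all genes, 591 of the 1050 higher in subcutaneous fat (56.3%) and 704 of the 1171 higher in epicardial fat (60.1%) kept their direction in 4 of 4, whereas 18.2% of the genes that had not passed went one way, in either direction, in 4 of 4. With sheep 255 set aside, 31 of the 32 genes, 69.2% and 65.0% kept it in 3 of 3.

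In HOXC6 sheep 255 stood apart: the log2 ratio of subcutaneous over epicardial CPM, with 0.5 added to each, was 8.85, 6.45 and 6.63 in sheep 48, 185 and 233 and 0.41 in sheep 255. DLK1 had no count in any subcutaneous library of testosterone ewes either, the shallowest of which held 784135 counts in all. Its log2 ratio ran from -9.06 to -8.21. LPL ran from -2.90 to -1.41 and IGF1 from -3.40 to -0.74 in the 4 testosterone ewes, so that both were higher in epicardial fat in each.

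**Figure D5:**
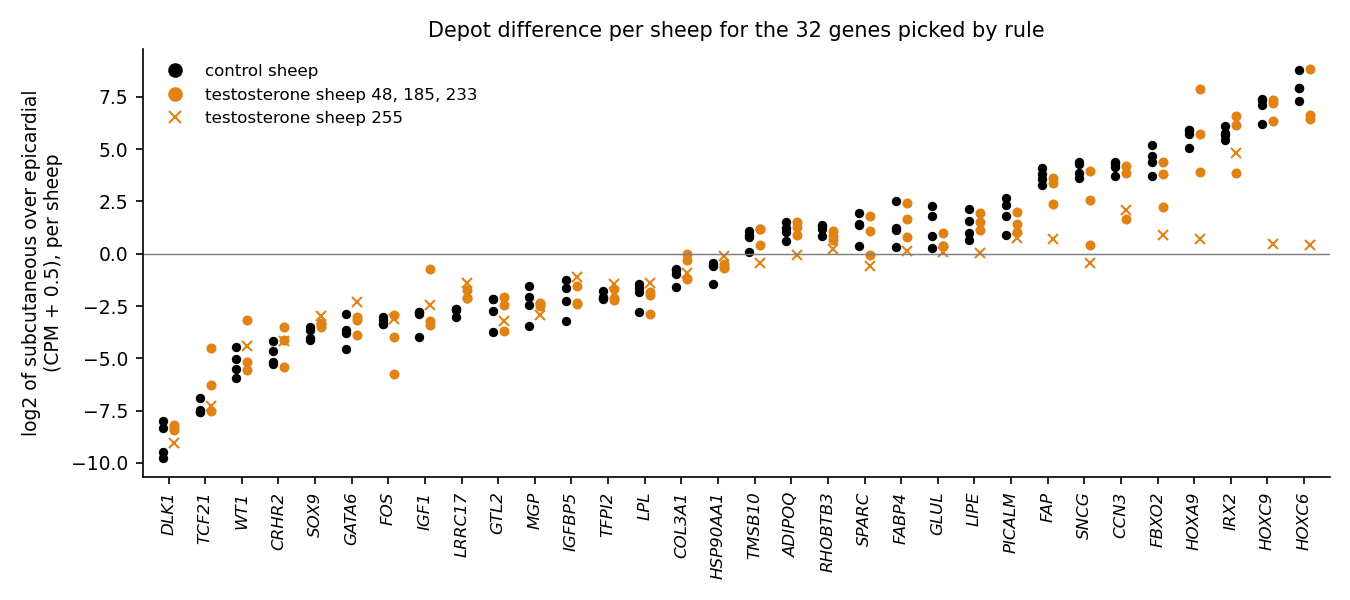
Log2 of subcutaneous over epicardial CPM, with 0.5 CPM added to each, in every sheep for the 32 genes taken by rule. Black points are the 4 control ewes that chose the genes and orange marks the 4 testosterone ewes, which did not; sheep 255 (crosses) lies near 0 for HOXC6 (0.41) and HOXC9 (0.47), where the other 3 lie above 6.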

How the data were processed

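The authors deposited unnormalized read counts for each gene and library, from 3′ end libraries of RNA that reached an integrity value of 7. The submitters' processing notes name, without saying what each did, STAR, featureCounts 1.6.1, Trimmomatic 0.36, FastQC 0.11.5, MultiQC 0.9, DESeq2 1.24.0 and R 3.6.3. The strand setting, genome build and annotation were not given in the sources used here. Counts of overlapping, antisense or near-identical genes may be assigned to the wrong one. The table has 28524 genes, of which 10441 carry locus numbers, and 406 of these took a symbol from a RefSeq gene table (assembly ARS-UI_Ramb_v3.0, used for names only), C3 among them.

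Libraries were grouped by the depot and treatment in the labels. Counts of the 8 control libraries were scaled by TMM and tested with edgeR 4.0.16 in R 4.3.3 (robust quasi-likelihood fit, filterByExpr with a minimum count of 10, sheep as a block, Benjamini-Hochberg adjustment over all genes tested). As edgeR gives no SE, the absolute log2 difference over the root of F stands in for it. The test was checked on simulated counts. Levels in visceral and perirenal fat, and the range of muscle sums in testosterone ewes, were scaled over all 32 libraries, and the comparison with testosterone ewes over 16. For a gene with no count in a depot, the floor of 3 counts over its 4 libraries was 0.175 CPM in subcutaneous and 0.165 CPM in epicardial fat, and bounds compare it with the pooled CPM of the other depot. Ratios on 1 to 3 reads have exact (Clopper-Pearson) intervals on the split of the reads.

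The pairing comes from the animals: both depots of a number are the same ewe. Deviations from the group means correlated between the depots of a ewe with a mean of 0.237 (0.177 to 0.336), and 4 of 4 ewes matched themselves best; different ewes gave a mean of -0.0787, which is negative by construction. Of 12 pairs of replicate libraries 0 were identical, and their chi-square per degree of freedom was at least 10.7, above sampling noise.

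The members and gene lists were chosen with earlier results of these data known. Genes were named by rule, 8 per direction with the lowest p and 8 with the largest difference in CPM, among genes that passed, whose depots did not overlap, that were not set apart with muscle and that reached 10 CPM in a depot; other genes are members of the lists, picked after their values were seen. Alternatives were DESeq2's size factors, DESeq2 1.42.0 itself, no filter, no block, all 16 control libraries, muscle genes removed or as a covariate, the pairs of sheep 132 and 201, and each sheep left out. Some members of the lists count in the totals and are not reported one by one here.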

Additional observations from a re-analysis of the deposited data

Results flagged for a closer look

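Single libraries lay far from the other 3 of their depot, by a gap that exceeded Dixon's critical value of 0.829 for groups of 4, in 33 of 332 groups of values looked at. Chance flags about 1 in 20 such groups. Of the 33 libraries 23 were the highest and 10 the lowest of their group.

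The epicardial library of sheep 98 was such a library in 10 instances, given here in CPM. It held the highest heart muscle sum (38241), TBX5 (57.7), SCD5 (109), PPARGC1A (85.7), NDUFS1 (169), IGF1R (458) and AGTR1 (44.6), and the lowest FABP4 (2886) and MYH11 (31.4). It was also the one with no UCP1 read (0) where the other 3 epicardial libraries had 1 each.

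In the epicardial libraries of the other sheep, HOXC9 (0.181) and IRX1 (0.194) rested on 1 read each, in sheep 132 and 131. HSP90AA1 (6162) and PECAM1 (407) were highest in sheep 132, NDRG1 (168) was highest and IGFBP3 (33.2) lowest in sheep 131, and TBX18 (123) was lowest in sheep 201.

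In subcutaneous fat, sheep 132 was highest for TBX20 (2.34), COL4A2 (646), LUM (241), EGLN3 (57.2) and NEFL (0.234), and lowest for GATA6 (4.45), ANPEP (62.1) and ADM (612). Sheep 98 was highest for IRX2 (57.6) and CIDEA (186) and lowest for DMRT2 (43.0) and TNF (1.01). Sheep 201 was highest for HSP90AA1 (2679), DGAT1 (4.61) and PEG3 (71.8), and sheep 131 for CRHR2 (2.19).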

How the results depend on the processing

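Of the settings tried in the control ewes, those that moved the number of passing genes by over 1.5 times were the muscle covariate, with 316 genes (139 higher in subcutaneous, 177 in epicardial fat), and the fit without sheep 201. Over the fits without 1 sheep the number ran from 1270 to 1718, with 558 to 746 genes higher in subcutaneous fat and 712 to 993 genes higher in epicardial fat. The covariate fit has 2 residual degrees of freedom, and 35 of the 2221 genes took the other sign in it; in the other settings none did. Without the replicate block, that is without pairing the depots by ewe, 1830 genes passed (881 and 949), 1734 of them shared with the paired fit. With all 16 control libraries 3102 passed, without a filter on low counts 2776, and with DESeq2 2130. Of the 157 genes named, 54 kept their direction and side of the threshold under all 12 alternatives. Of the 142 that passed, 0 changed direction. The sign turned in 7 others, which passed neither before nor after, and the cause was not tested. With the muscle covariate the log2 difference was 0.93 for TBX5, -0.93 for LEP, -0.064 for PPARG, -0.24 for FASN and -0.22 for IGF2. In sheep 132 and 201 it was -0.32 for LEP, -0.065 for FASN and -0.087 for IGF2. Without the replicate block it was -0.0024 for IGF1R and 0.010 for PGR, and with 16 libraries -0.0019 for IGF1R. With 1 sheep left out PPARG ran from -0.042 to 0.20, FASN from -0.12 to 0.39, IGF1R from -0.19 to 0.18 and PGR from -0.21 to 0.016. The comparison with testosterone ewes gave 1 gene without the filter in place of 0. Depth limits low genes: a gene under the floor of 3 counts may be present.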

Other observations

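Several gene lists not described above were also counted, against shares of 8.41% (subcutaneous) and 9.38% (epicardial) over all genes. Of 16 adipogenic transcription factors tested 7 were higher in subcutaneous and 2 in epicardial fat, of 11 adipokines 4 and 3, of 16 fatty acid uptake genes 3 and 5, and of 17 retinoid genes 5 and 3. Of 33 guidance cues 1 was higher in subcutaneous and 6 in epicardial fat. Heat shock proteins gave 5 of 17 higher in epicardial and 0 in subcutaneous fat in edgeR's test, and the 5 became 3 without sheep 131, 2 without sheep 132 and 1 without sheep 201. Macrophage genes gave 2 of 13 in each direction, against 8.41% and 9.38% over all genes. Ribosomal protein genes gave 3 of 42 higher in epicardial fat, below the share over all genes. The macrophage genes summed to 799.8 to 1286 CPM in subcutaneous and 1053 to 1554 CPM in epicardial libraries.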
